A study of Mus musculus with 15 samples.

Results

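The red blood cell transcripts in mouse liver RNA were followed through 6 genes. These 6, of 37991 in the count table, were taken by name and not by their values: Hba-a1 and Hba-a2, which encode the alpha chain of adult hemoglobin, Hbb-b1 and Hbb-b2, which encode the beta chain, Alas2, the red cell form of 5-aminolevulinate synthase, and Slc4a1, which encodes band 3. All 6 were found, and all 6 passed the filter on low counts that left 14258 genes for testing. In adult liver such transcripts are read as a measure of blood content, although the cells that held them were not identified in these bulk libraries.

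RNA sequencing of whole liver homogenates was carried out in 3 groups of 5 female mice on the C57BL/6 strain. Young WT mice carried functional S6K1 and were 90 days old, old WT mice had the same genotype at 600 days, and old KO mice, also kept to 600 days, had no S6K1 in any tissue, all of these animals having been bred from heterozygous pairs or trios. Each library came from the frozen liver of 1 animal. No young KO group was included, and the sources used here do not say whether the livers were perfused or how much blood they held. Total counts ran from 21801754 to 38065359 per library. Rps6kb1, the gene of S6K1, lay between 33.3 and 45.4 CPM in the 10 WT libraries and between 15.2 and 20.8 CPM in the 5 old KO libraries. The WT and old KO ranges did not overlap, but the count covers the whole gene and not the deleted part alone, so it separates the groups without showing a complete loss of the gene. The hepatocyte marker Alb was between 59990 and 118200 CPM in every library. CPM is the count of a gene per 1e6 counts of the scaled library size.

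Adult hemoglobin is a tetramer of alpha and beta chains, each holding a heme that binds oxygen. Red cell precursors in the bone marrow and spleen make the chains in great excess over other proteins, and Alas2 carries out the first and rate-setting step of their heme synthesis. Band 3 exchanges chloride for bicarbonate across the red cell membrane and anchors the membrane to the spectrin skeleton. Reticulocytes, the youngest red cells in blood, still hold these messenger RNAs after they have lost their nucleus, and the RNA is gone once they are mature.

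The 2 alpha genes and the 2 beta genes are near-identical copies, which limits how far their counts can be told apart. On the NCBIM37 build (mm9), Hba-a1 is at chr11:32183511-32184465 and Hba-a2 at chr11:32196489-32197301, both on the plus strand. Hbb-b2 at chr7:110961038-110962510 and Hbb-b1 at chr7:110975048-110976610 are on the minus strand. The coding sequences of the alpha pair are 429 bases long and differ at 1 base, C381T, read from Hba-a1 to Hba-a2 and counted from the first base of the start codon. Those of the beta pair are 444 bases long and also differ at 1 base, C417T, read from Hbb-b1 to Hbb-b2. The 50-base stretches around each differing base, as long as a read, are shown because only reads over the capital letter separate the coding sequences, on the coding strand and 5′ to 3′:
Hba-a1: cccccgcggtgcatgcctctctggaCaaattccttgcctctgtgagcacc
Hba-a2: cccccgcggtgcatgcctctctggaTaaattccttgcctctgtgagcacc
Hbb-b1: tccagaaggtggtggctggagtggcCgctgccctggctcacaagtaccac
Hbb-b2: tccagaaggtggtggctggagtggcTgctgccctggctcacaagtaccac

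Outside the coding sequence the copies differ more. Of the 50-base windows along each GENCODE transcript, 7.7% occurred nowhere else in the genome or transcripts searched for Hba-a1, 13.1% for Hba-a2, 47.7% for Hbb-b1 and 41.7% for Hbb-b2. How reads mapping to both copies were counted is not given in the sources used here. The share of a pair's reads given to each copy is therefore uncertain, and both copies of a pair are best read together. Slc4a1, at chr11:102210138-102227517 on the minus strand, had 100% of its windows to itself.

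Alas2 lies at chrX:146981918-147005181 on the plus strand, and 86.8% of its windows were its own. The rest are shared with Apex2, a gene of base excision repair on the opposite strand, whose exons overlap 311 of the 2403 exon bases of Alas2 (12.9%). The libraries were stranded, but the strand setting of the counting was not stated. Apex2, chosen for mention because of this overlap, was at 12.02 ± 3.10 CPM in young WT, 6.82 ± 1.04 in old WT and 6.83 ± 1.54 in old KO (mean ± SD, n = 5 each), and fell by 0.82 on the log2 scale in old WT against young WT (SE 0.19, edgeR adjusted p = 0.00693). Its part in the Alas2 counts was not tested.

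The sequences just upstream of the start sites are shown because the genes varied together across libraries, as given further on. Each is the 120 bases before the start site in RefSeq (GRCm38.p6), found unchanged in NCBIM37, at chr11:32183552-32183671 for Hba-a1 (plus strand), chr7:110976443-110976562 for Hbb-b1 (minus strand, under the RefSeq name Hbb-bs) and chrX:146981840-146981959 for Alas2 (plus strand). Capitals mark matches on either strand to TATAA (the TATA box), CCAAT (the box of that name), CACCC (bound by KLF factors) or GATAA (bound by factors of the GATA family). Written 5′ to 3′ along the strand of each gene they read:
Hba-a1: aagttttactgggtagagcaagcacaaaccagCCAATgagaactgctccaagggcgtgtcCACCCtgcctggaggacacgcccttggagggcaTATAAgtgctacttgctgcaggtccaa
Hbb-b1: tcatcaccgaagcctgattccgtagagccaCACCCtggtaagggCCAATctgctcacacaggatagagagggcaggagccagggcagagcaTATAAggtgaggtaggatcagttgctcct
Alas2: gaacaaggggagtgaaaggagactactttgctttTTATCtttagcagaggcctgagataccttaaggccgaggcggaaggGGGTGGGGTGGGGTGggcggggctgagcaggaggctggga

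Hba-a1 and Hbb-b1 each held 1 TATAA, 1 CCAAT and 1 CACCC in this window and no GATAA. The TATAA match began 27 bases before the start site in Hba-a1 and 29 bases before it in Hbb-b1. Alas2 held neither TATAA nor CCAAT, but 3 CACCC matches in a row on the opposite strand and 1 GATAA, also on the opposite strand. Among 32851 windows of the same length before other start sites, 11.8% held TATAA, 21.3% CCAAT, 31.7% CACCC and 10.5% GATAA. The windows of Hba-a1 and Hba-a2 had a run of 117 bases in common, while the longest run common to Hbb-b1 and Hbb-b2 was 14 bases. The start sites are those of RefSeq: the longest GENCODE models of Hba-a1 and Hbb-b1 begin further upstream, and that of Alas2 inside its window. Slc4a1 had no entry in the promoter table used. A match of letters is a description and not a bound site.

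The 4 globin genes made up a very small share of liver RNA that differed widely between animals. Together they took 0.00408% to 0.0365% of all counts in a library, or 40.7 to 370 CPM, a 9.09-fold range. Summed over the 4 genes, young WT libraries 1, 2, 3, 4 and 6 stood at 90.4, 41.6, 44.9, 96.3 and 40.7 CPM. Old WT libraries 1, 4, 5, 7 and 10 stood at 97.8, 94.1, 69.2, 148 and 100.2 CPM. Old KO libraries 1, 2, 4, 5 and 6 stood at 116, 370, 97.2, 286 and 245 CPM. The 3 highest of the 15 libraries were old KO 2, 5 and 6, and the 4 lowest were young WT 6, 2 and 3 and old WT 5. Old KO 1 and 4 lay among the old WT libraries. In whole tissue, more red cells and more globin RNA per red cell cannot be told apart.

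Hbb-b1 had the highest counts of the 6 genes. Its level per kilobase of transcript averaged 105 CPM over the 15 libraries, against 30.2 for Hba-a1, 22.7 for Hba-a2, 19.6 for Hbb-b2, 6.196 for Alas2 and 0.0966 for Slc4a1. The order within each globin pair rests on reads that the copies can share. Without division by length, Slc4a1 averaged 0.439 CPM over the 15 libraries, where 3 counts in a library correspond to between 0.0788 and 0.138 CPM. Band 3 RNA was close to the limit of detection in young WT, with a median of 0.0431 CPM.

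Within groups all 6 genes spread more than most genes did. The biological coefficient of variation fitted by edgeR was 0.387 for Hba-a1, 0.426 for Hba-a2, 0.370 for Hbb-b1, 0.425 for Hbb-b2, 0.324 for Alas2 and 0.847 for Slc4a1. Its median over all tested genes was 0.155. Between 89.6% (Alas2) and 99.8% (Slc4a1) of the tested genes had a lower value.

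**Figure D1:**
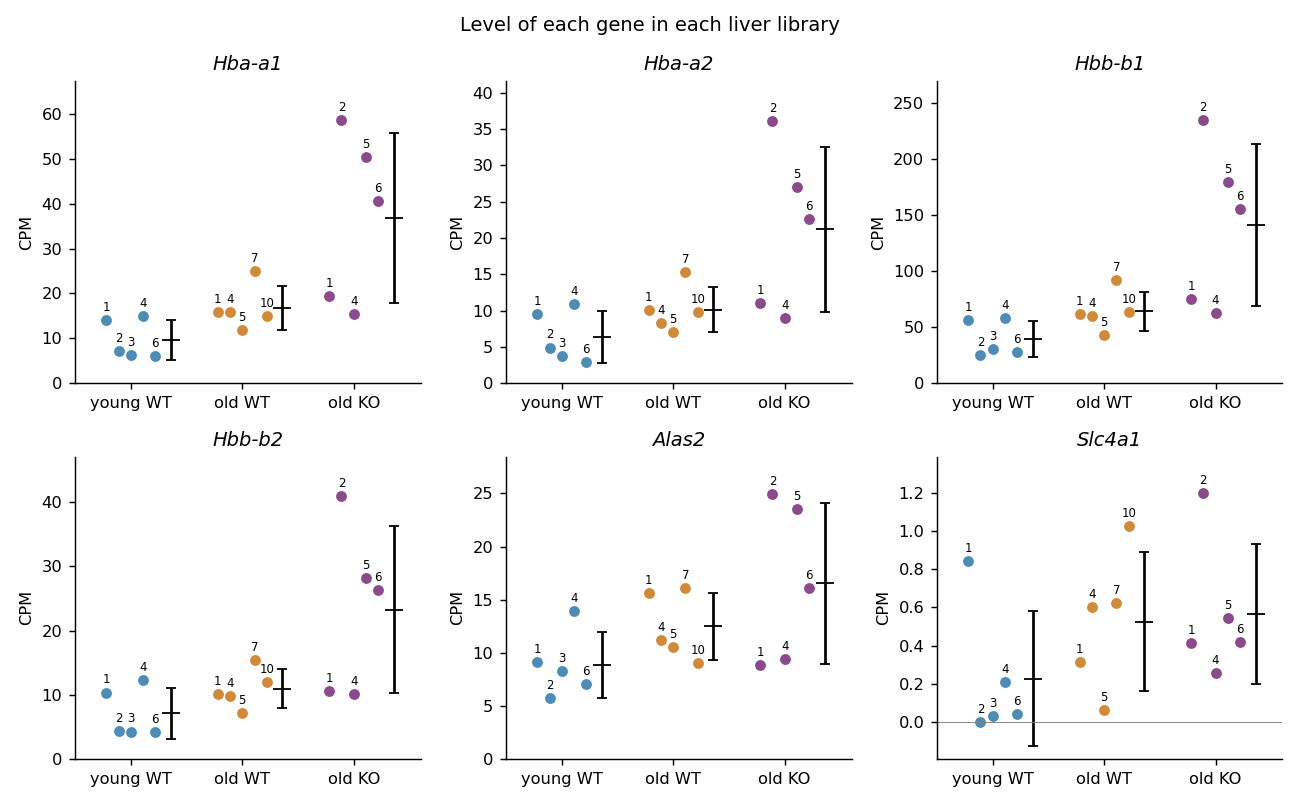
Level of each of the 6 genes in CPM (vertical axes, each from its own scale) in every library, with the replicate number above each point and the group mean ± SD (n = 5) as a bar to the right of the points. Old KO libraries 2, 5 and 6 are highest for the 4 globin genes, and old KO 2 and 5 for Alas2, where old KO 6 is nearly level with old WT 7. The young WT points of Slc4a1 lie near 0 except replicate 1 at 0.842 CPM.

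Among the beta chain genes, Hbb-b1 stood at 56.5, 25.3, 30.7, 58.3 and 27.5 CPM in young WT libraries 1, 2, 3, 4 and 6, and at 61.6, 59.9, 43.1, 91.9 and 63.5 CPM in old WT libraries 1, 4, 5, 7 and 10. It stood at 75.5, 235, 62.6, 180 and 155 CPM in old KO libraries 1, 2, 4, 5 and 6. Every old KO library was above every young WT library, and old KO overlapped old WT through replicates 1 and 4. Its copy Hbb-b2 stood at 10.4, 4.31, 4.27, 12.3 and 4.27 CPM in the young WT libraries, at 10.2, 9.85, 7.16, 15.4 and 11.95 in the old WT libraries, and at 10.5, 40.9, 10.2, 28.2 and 26.3 in the old KO libraries, in the same orders. The ranges of Hbb-b2 overlapped in all 3 comparisons. Young WT 1 and 4 reached the level of the lowest old KO animals and lay within the old WT range, as did old KO 1 and 4.

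For both alpha chain genes, as for both beta chain genes, the highest 4 libraries were old KO 2, old KO 5, old KO 6 and old WT 7, in that order, while the libraries below them changed places between genes. Hba-a1 stood at 14.0, 7.08, 6.19, 14.9 and 5.99 CPM in young WT libraries 1, 2, 3, 4 and 6, at 15.8, 16.0, 11.9, 25.0 and 15 CPM in old WT libraries 1, 4, 5, 7 and 10, and at 19.4, 58.5, 15.5, 50.4 and 40.7 CPM in old KO libraries 1, 2, 4, 5 and 6. The lowest old KO library was above the highest young WT library for Hba-a1, though only just. Hba-a2 stood at 9.58, 4.92, 3.72, 10.9 and 2.98 CPM in young WT, at 10.1, 8.32, 7.10, 15.3 and 9.81 in old WT, and at 11.01, 36.2, 8.95, 27.1 and 22.7 in old KO. For Hba-a2 old KO 4 lay below young WT 1 and 4, and the groups overlapped.

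Alas2 differed less between the groups. Its levels were 9.16, 5.74, 8.31, 13.9 and 7.07 CPM in young WT libraries 1, 2, 3, 4 and 6, then 15.7, 11.2, 10.5, 16.1 and 9.01 in old WT libraries 1, 4, 5, 7 and 10, and 8.84, 24.9, 9.38, 23.5 and 16.1 in old KO libraries 1, 2, 4, 5 and 6. Old KO 2 and 5 were again the highest, while old KO 6 (16.06 CPM) was nearly level with old WT 7 (16.05 CPM). Old KO 1 was below all old WT libraries, and the ranges overlapped in all 3 comparisons.

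Slc4a1 gave only a few reads. Young WT libraries 1, 2, 3, 4 and 6 held 32, 0, 1, 7 and 1 counts, old WT libraries 1, 4, 5, 7 and 10 held 10, 17, 2, 17 and 28, and old KO libraries 1, 2, 4, 5 and 6 held 11, 33, 6, 13 and 9. Of the 41 counts in young WT, 32 came from replicate 1. The 0 in young WT 2 allows a level of up to 0.0899 CPM, counting error only.

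The first comparison asked how age changed these genes in WT mice. None of the 6 differed between old WT and young WT past the threshold, an edgeR adjusted p under 0.05, which 18.8% of all tested genes passed (9.92% higher and 8.91% lower). At an unadjusted p under 0.05 there was 1 of 6, Hba-a1, against 33% of all genes, and DESeq2 also called 0 of 6 (19.9% of all genes). All 6 fitted log2 fold changes were positive, with a median of 0.67 beside 0.01 for all tested genes. No member had ranges that did not overlap, against 11.4% of all genes. The estimates and their errors (edgeR) were 0.79 (SE 0.36, adjusted p = 0.139) for Hba-a1, 0.65 (SE 0.40, adjusted p = 0.271) for Hba-a2, 0.69 (SE 0.34, adjusted p = 0.169) for Hbb-b1 and 0.61 (SE 0.40, adjusted p = 0.304) for Hbb-b2. Alas2 stood at 0.49 (SE 0.30, edgeR adjusted p = 0.261) and Slc4a1 at 1.06 (SE 0.79, edgeR adjusted p = 0.369). The Slc4a1 result rested on young WT 1: without that library the estimate was 2.72 and the edgeR adjusted p 0.0438.

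The second comparison asked how loss of S6K1 changed them at 600 days. Again 0 of 6 passed, against 0.533% of all tested genes (0.112% higher and 0.421% lower), and DESeq2 called 0 of 6 as well (2.14% of all genes). At an unadjusted p under 0.05 there were 4 of 6, the 4 globin genes, against 11.6% of all genes. All 6 log2 fold changes were positive, with a median of 1.08 beside 0.00 for all tested genes. Hbb-b1 was at 142 ± 72.3 CPM in old KO and 64.0 ± 17.6 in old WT (mean ± SD, n = 5 each), which the fit put at 1.15 on the log2 scale (SE 0.34, edgeR adjusted p = 0.162). Hba-a1 was at 36.9 ± 18.9 CPM in old KO and 16.7 ± 4.92 in old WT, with a fitted difference of 1.14 on the same scale (SE 0.36, edgeR adjusted p = 0.184). The large SD in old KO reflects 3 animals above every old WT animal and 2 within their range.

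The other 4 genes gave smaller or less certain differences between the old groups. Hba-a2 differed by 1.07 on the log2 scale (SE 0.39, edgeR adjusted p = 0.275) and Hbb-b2 at 1.09 (SE 0.39, edgeR adjusted p = 0.260). Alas2 was at 16.5 ± 7.58 CPM in old KO and 12.5 ± 3.18 in old WT, a fitted log2 difference of 0.41 (SE 0.30, edgeR adjusted p = 0.647). Slc4a1 was at 0.566 ± 0.368 CPM in old KO and 0.526 ± 0.365 in old WT, a fitted log2 difference of 0.15 (SE 0.74, edgeR adjusted p = 0.969). The sign for Slc4a1 turned without old KO 2 (-0.34) and without old WT 5 (-0.15). No member had ranges that did not overlap in this comparison, against 3.2% of all genes.

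The third comparison set old KO against young WT, which differ in both age and genotype. It shares the old KO libraries with the second comparison and the young WT libraries with the first. Here 5 of 6 genes were higher in old KO (edgeR adjusted p under 0.05), against 12% of all tested genes called higher and 23.3% called in either direction. DESeq2 called the same number, 5 of 6, against 21.9% of all genes, and an unadjusted p under 0.05 was reached by 5 of 6, against 36.8% of all genes. For both counts all genes were taken in either direction. The median log2 fold change was 1.71 beside -0.01 for all tested genes. Hba-a1 rose 3.81-fold (log2 fold change 1.93, SE 0.37, edgeR adjusted p = 0.00194) and Hbb-b1 3.57-fold (1.83, SE 0.35, edgeR adjusted p = 0.00193). For these 2 genes the ranges did not overlap, which held for 7.32% of all genes in the higher direction.

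Their copies moved by nearly the same amount. Hba-a2 rose 3.28-fold (log2 fold change 1.71, SE 0.40, edgeR adjusted p = 0.00658) and Hbb-b2 3.25-fold (1.70, SE 0.40, edgeR adjusted p = 0.00689). Alas2 rose 1.87-fold (0.90, SE 0.30, edgeR adjusted p = 0.0387), but this call was lost without any 1 of 7 libraries (young WT 1, 2, 3 and 6 and old KO 2, 5 and 6), with adjusted p up to 0.104. Slc4a1 differed by 1.21 on the log2 scale (SE 0.79, edgeR adjusted p = 0.281), and without young WT 1 at 2.87 (edgeR adjusted p = 0.0277).

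**Figure D2:**
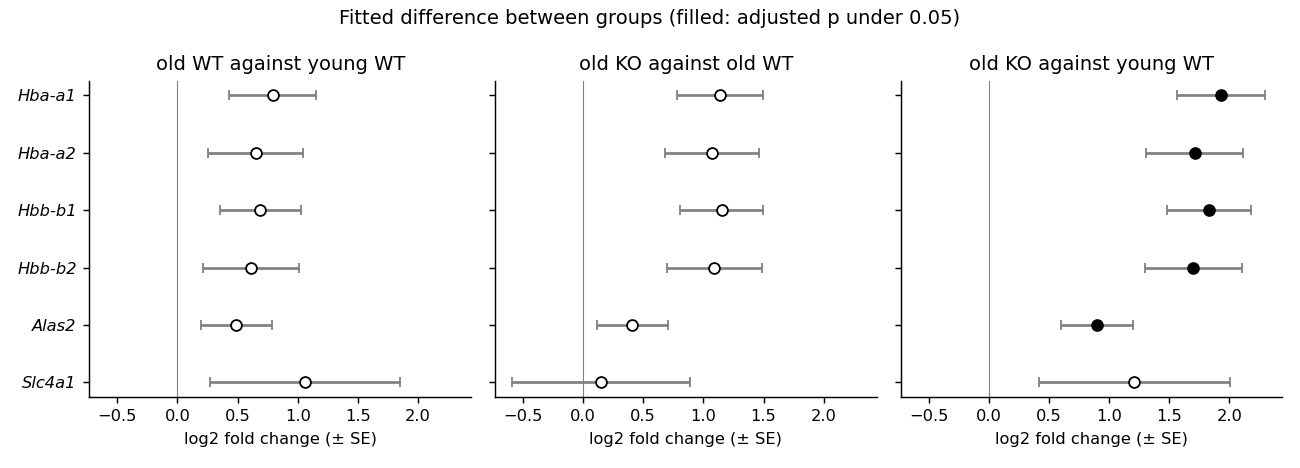
Fitted log2 fold change (horizontal axis) of the 6 genes in the 3 comparisons, with the SE as bars. Filled points passed an edgeR adjusted p of 0.05: none in the first and second comparison, and all but Slc4a1 in the third.

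Ratios between genes in the same library do not depend on how libraries are scaled. A total of 4 ratios was examined, chosen after the counts had been seen. Hba-a1 held between 1.37 and 2.01 reads for each read of Hba-a2, and Hbb-b1 between 4.73 and 7.19 for each read of Hbb-b2. The ratio of Hba-a1 to Hbb-b1 lay between 0.202 and 0.280 in all 15 libraries, while the summed globin level varied 9.09-fold. None of these 3 ratios differed between groups past the threshold in any comparison (Benjamini-Hochberg adjusted p of 0.477 or more in exact permutation tests).

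The ratio of Alas2 to Hbb-b1 was lowest in old KO. It was 0.162, 0.227, 0.271, 0.239 and 0.257 in young WT libraries 1, 2, 3, 4 and 6, then 0.254, 0.187, 0.244, 0.175 and 0.142 in old WT libraries 1, 4, 5, 7 and 10, and 0.117, 0.106, 0.150, 0.131 and 0.103 in old KO libraries 1, 2, 4, 5 and 6. All 5 old KO libraries were below all young WT libraries, and 4 of 5 were below all old WT libraries. The log2 ratio differed by -0.70 between old KO and old WT (exact 2-sided permutation p = 0.0159) and by -0.92 between old KO and young WT (exact p = 0.00794, the smallest that 5 against 5 allows). Over the 12 ratio tests run, the adjusted values were 0.0954 and 0.0953 by exact permutation, so neither passed 0.05. The overlap of Alas2 with Apex2 bears on the counts of this ratio, and its part was not tested.

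**Figure D3:**
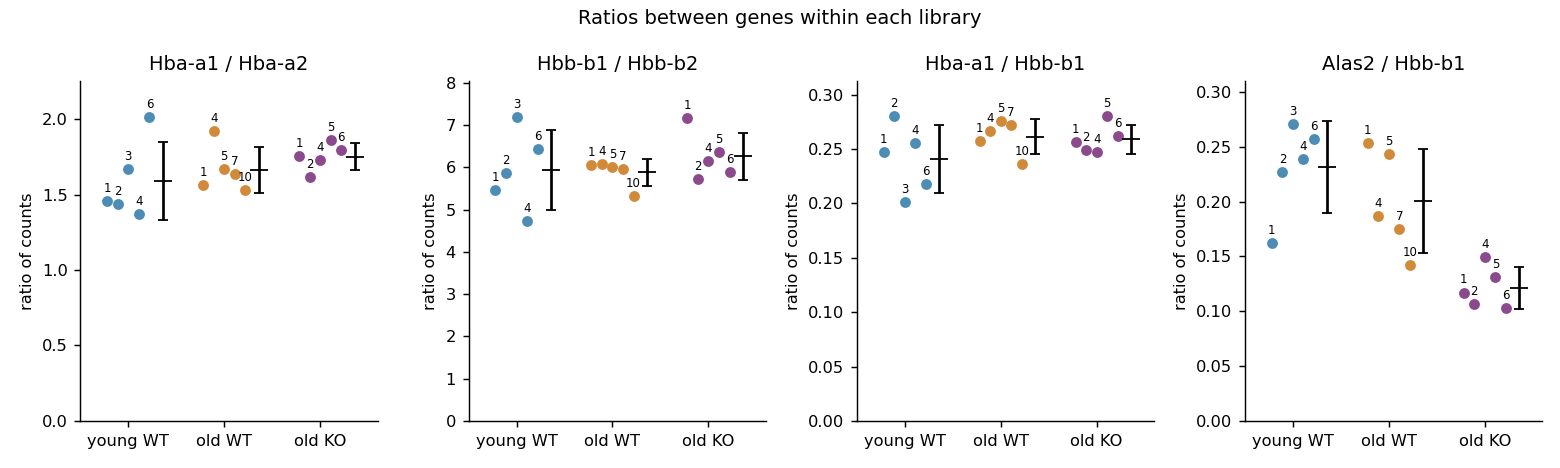
Ratio of counts between pairs of genes (vertical axes, from 0) in each library, with replicate numbers and the group mean ± SD (n = 5). The ratios within the globin genes lie in narrow bands, and the ratio of Alas2 to Hbb-b1 is 0.103 to 0.150 in old KO and 0.162 to 0.271 in young WT.

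The globin genes varied together across the 15 libraries. Over the 6 pairs of globin genes, Pearson's r of log2 CPM lay between 0.976 and 0.993 and Spearman's rho between 0.854 and 0.964. Alas2 correlated with the globins at r of 0.880 to 0.891 (rho 0.779 to 0.825) and Slc4a1 at 0.750 to 0.789 (rho 0.668 to 0.732). The weakest of the 15 pairs was Alas2 with Slc4a1, at r = 0.606 (permutation p = 0.0176) and rho = 0.568 (permutation p = 0.0307). Adjusted over the 15 pairs, permutation p-values ran from 1.87e-05 to 0.0176 for r and from 7.5e-05 to 0.0307 for rho. Reads that the copies share may add to the correlation within each pair, depending on how such reads were counted. The alpha and beta genes share none in the windows searched.

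The relation was also present within groups and without the most extreme libraries. As deviations from the group means, r lay between 0.954 and 0.984 among the globins, between 0.832 and 0.885 for Alas2 with the globins and between 0.679 and 0.739 for Slc4a1 with the globins. Without the 2 libraries farthest from the median of the gene on the x axis these ranges were 0.973 to 0.987, 0.777 to 0.828 and 0.659 to 0.771. Old KO 2, 5 and 6 lay apart from the other 12 libraries in globin level. Over those 12 alone, r was 0.942 to 0.980 among the globins, 0.720 to 0.751 for Alas2 and 0.780 to 0.863 for Slc4a1.

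**Figure D4:**
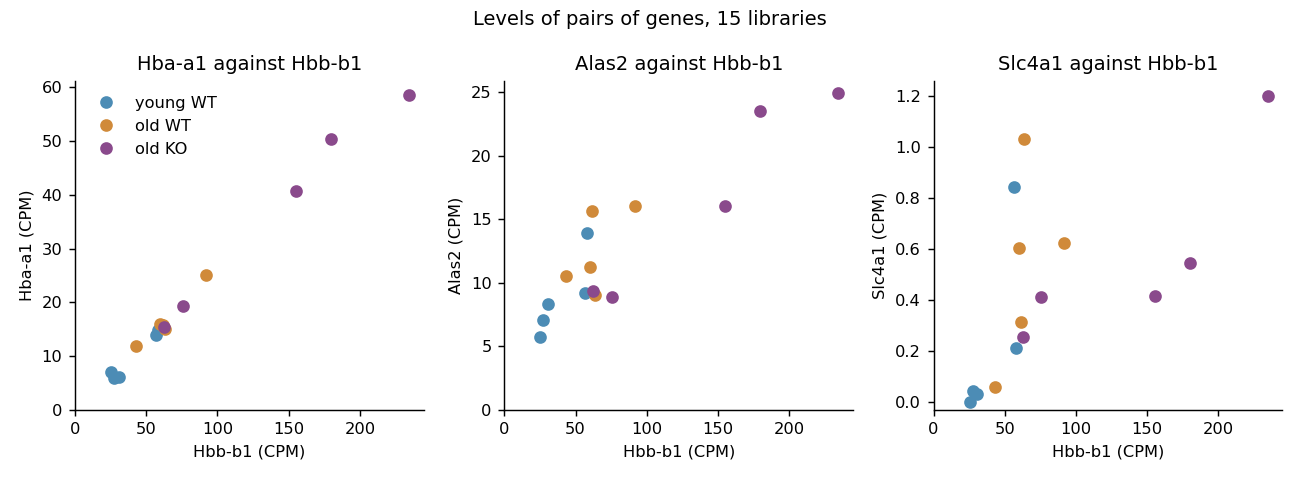
CPM of Hba-a1, Alas2 and Slc4a1 (vertical axes) against CPM of Hbb-b1 (horizontal axis), 1 point per library, coloured by group. Hba-a1 follows Hbb-b1 closely (r = 0.993 in log2 CPM), Alas2 less so (r = 0.889), and Slc4a1 least (r = 0.766).

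The genes whose pattern across the 15 libraries was most like the mean log2 CPM of the 6 were sought among 12120 genes with a mean of at least 1 CPM. Among the 10 most like it were the pseudogene Gm4604 (r = 0.858) and Isg20, an exonuclease gene (r = 0.810). Then came Trf, encoding the plasma iron carrier transferrin (r = 0.805), the clock gene Cry1 (0.797), Tmem14c, a mitochondrial porphyrin carrier of heme synthesis (0.788), the kinase gene Pim2 (0.783), the ion channel gene Tmem38b (0.775), the splicing kinase gene Clk3 (0.774) and Khk, encoding ketohexokinase (0.764). As deviations from group means these r were lower, from 0.445 for Tmem14c to 0.759 for Gm4604.

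Of the other globin genes only Cygb, the cytoglobin gene, had enough counts for testing. The embryonic genes Hba-x, Hbb-y, Hbb-bh1 and Hbb-bh2 and the theta gene Hbq1a had 0 counts in all 15 libraries, which allows at most 3 counts in each, and Hbq1b had at most 2. Cygb was measured at 5.96 ± 0.778 CPM in young WT, 9.96 ± 3.45 in old WT and 9.80 ± 1.91 in old KO (SD, n = 5 each), and it rose in old WT against young WT (log2 fold change 0.74, SE 0.21, edgeR adjusted p = 0.0210).

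Genes of heme synthesis, of which Alas2 is the red cell entry point, all passed the filter on low counts. Of 12 other genes of the pathway 3 rose and 1 fell in old WT against young WT, 0 changed in old KO against old WT by edgeR or DESeq2 (2 at an unadjusted p under 0.05), and 5 rose and 1 fell in old KO against young WT. The median log2 fold changes of these 12 genes were 0.08, 0.05 and 0.11, beside 0.67, 1.08 and 1.71 for the 6 red cell genes. In the 3 comparisons edgeR called 18.8%, 0.533% and 23.3% of all tested genes, and DESeq2 2.14% in the second. With so few calls over all genes in the second, 0 of 12 cannot set the pathway apart. Alas1, the housekeeping counterpart of Alas2, was at 536 ± 217 CPM in young WT and 197 ± 56.4 in old WT, a fall by 1.45 on the log2 scale (SE 0.27, edgeR adjusted p = 0.00266). Young WT 1 had the highest Alas1 value, 901 CPM. With age Alad, the next enzyme, rose by a log2 fold change of 0.50, the mitochondrial transporter gene Abcb10 by 0.49 and Tmem14c by 0.31 (edgeR adjusted p = 0.0495, 0.00343 and 0.0121).

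Of 26 genes of the red cell membrane and cytoskeleton other than Slc4a1, 15 were tested, and 1 rose (Xk, of the Kx blood group protein, log2 fold change 0.41) and 1 fell (Epb4.1, encoding protein 4.1, by 0.70 on the log2 scale) with age. None of the 15 was called between old KO and old WT by edgeR or DESeq2 (3 at an unadjusted p under 0.05), with a median log2 fold change of 0.00. Over all tested genes edgeR called 18.8% with age and 0.533% between old KO and old WT, so these few calls cannot set the list apart. No library held more than 9 counts of Spna1, the red cell alpha-spectrin gene, or more than 4 of Rhag, of the Rh complex. Spna1 had 7 counts in all of young WT, 8 in old WT and 21 in old KO. Spnb1, the beta-spectrin gene, held between 25 and 116 counts in a library. These genes were chosen for mention after their values were seen.

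Of the 26 genes of the red cell cytosol and of maturation that were found, 21 were tested, and 1 rose (Prdx2, a peroxiredoxin, log2 fold change 0.22) and 1 fell (Tfrc, the transferrin receptor, by 0.86 on the log2 scale) with age. Between old KO and old WT edgeR called 0 (2 at an unadjusted p under 0.05) and DESeq2 called 1, where 2.14% of all genes passed by DESeq2. In old KO against young WT 4 were higher and 1 lower by edgeR, beside 23.3% of all tested genes called in either direction. With age edgeR called 18.8% of all tested genes, and between the old groups 0.533%.

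Nucleated red cell precursors left few transcripts. Gata1, the master regulator of the lineage, had at most 1 count in any library. Klf1, which activates the adult beta-globin gene, was measured at 45 to 130 counts, with means of 3.13, 2.85 and 3.59 CPM in young WT, old WT and old KO, and passed no comparison (edgeR adjusted p of 0.491 or more). Of 17 tested erythroid regulators, 2 rose with age (Stat5a and E2f2, log2 fold changes 0.50 and 1.28) and Ldb1 fell by 0.59 on the log2 scale. Between old KO and old WT, 0 changed by edgeR and 0 by DESeq2 (3 at an unadjusted p under 0.05). In old KO against young WT 4 were higher and 1 lower by edgeR, beside 12% and 11.3% of all tested genes. DESeq2 called 4 higher and 2 lower there, beside 21.9% of all genes in either direction. The shares called over all tested genes were 18.8% with age and 0.533% between the old groups by edgeR, and 2.14% between the old groups by DESeq2. Summed over the 8 markers fixed for precursors, which include Kit and Tfrc of other liver cells, the young WT libraries lay between 51.8 and 73.3 CPM, the old WT libraries between 28.5 and 47.7, and the old KO libraries between 25.6 and 51.5. The precursor sum was thus not highest in the group with the highest globin levels.

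Among genes that clear heme and hemoglobin most calls were of lower levels. Of 18 tested, 1 rose and 4 fell in old WT against young WT, 1 fell in old KO against old WT (4 by DESeq2), and 1 rose and 8 fell in old KO against young WT. The medians of their log2 fold changes were -0.17, -0.21 and -0.50. Over all tested genes edgeR called 18.8% (8.91% lower), 0.533% (0.421% lower) and 23.3% (11.3% lower), and DESeq2 2.14% in the second comparison. Cd163, the macrophage receptor for haptoglobin-bound hemoglobin, was at 18.2 ± 6.77 CPM in young WT, 5.03 ± 5.25 in old WT and 1.30 ± 0.822 in old KO, and fell by 1.86 on the log2 scale with age (SE 0.57, edgeR adjusted p = 0.0336). Stab1 and Stab2, scavenger receptors of the sinusoidal endothelium, fell by 0.47 and 0.56 with age (edgeR adjusted p = 0.0214 and 0.0358). Slc40a1, the iron exporter ferroportin, rose by a log2 fold change of 0.75 (edgeR adjusted p = 0.00333).

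Heme oxygenase 1, which opens the heme ring, was called in the comparison of genotypes. Hmox1 was at 23.4 ± 5.39 CPM in old WT and 12.97 ± 1.34 in old KO, with no overlap, and fell by 0.85 on the log2 scale (SE 0.18, edgeR adjusted p = 0.0484). Globin levels were highest, and Hmox1 lowest, in the same group of animals.

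The summed markers of other blood cells were not highest in the old KO libraries richest in globin RNA. The summed level of 21 platelet markers lay between 41.5 and 55.4 CPM in young WT, between 40.5 and 51.8 in old WT and between 37.7 and 45.7 in old KO, with old KO 2, the library richest in globins, at 41.7. The sum of 20 leukocyte genes lay between 167 and 255 CPM in young WT, between 221 and 280 in old WT and between 162 and 215 in old KO, and each old KO library lay below each old WT library. Granulocyte markers (20 genes) summed to 15.3 to 30.4, 24.3 to 155 and 24.8 to 59.0 CPM, with the highest value in old WT 10, where Lcn2 alone made 141 CPM. No test was run on these sums, and in whole liver they do not separate circulating blood cells from cells of the tissue.

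Leukocyte genes were higher in old WT than in either other group on the median. Of 20 leukocyte genes 7 rose and 0 fell in old WT against young WT, led by Cd48, Cd52, Hcls1 and Rac2 (log2 fold changes 1.15, 0.90, 0.79 and 0.76). Rac2, a GTPase of blood cells, fell by 0.83 on the log2 scale in old KO against old WT (edgeR adjusted p = 0.0459), where edgeR called 1 gene of the list and DESeq2 10, all lower. In that comparison all 20 fold changes were below 0, with a median of -0.81 on the log2 scale, and 17 of the 20 had an unadjusted p under 0.05, a limit that 11.6% of all tested genes met. With age 13 of the 20 had an unadjusted p under 0.05, beside 33% of all tested genes, and the median log2 fold change was 0.58. The platelet genes F13a1 and Ppbp rose with age (log2 fold changes 1.96 and 1.64, at means of 0.742 and 0.665 CPM in old WT) and Itgb3 fell by 1.07. Of 7 tested granulocyte genes Chi3l3 and Lcn2 rose with age (log2 fold changes 1.86 and 1.71). Between old KO and old WT, 0 of 13 platelet and 0 of 7 granulocyte genes were called by edgeR or DESeq2, with 3 and 2 at an unadjusted p under 0.05. Among all tested genes edgeR called 18.8% with age (9.92% higher). Between the old groups it called 0.533% and DESeq2 2.14%.

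**Figure D5:**
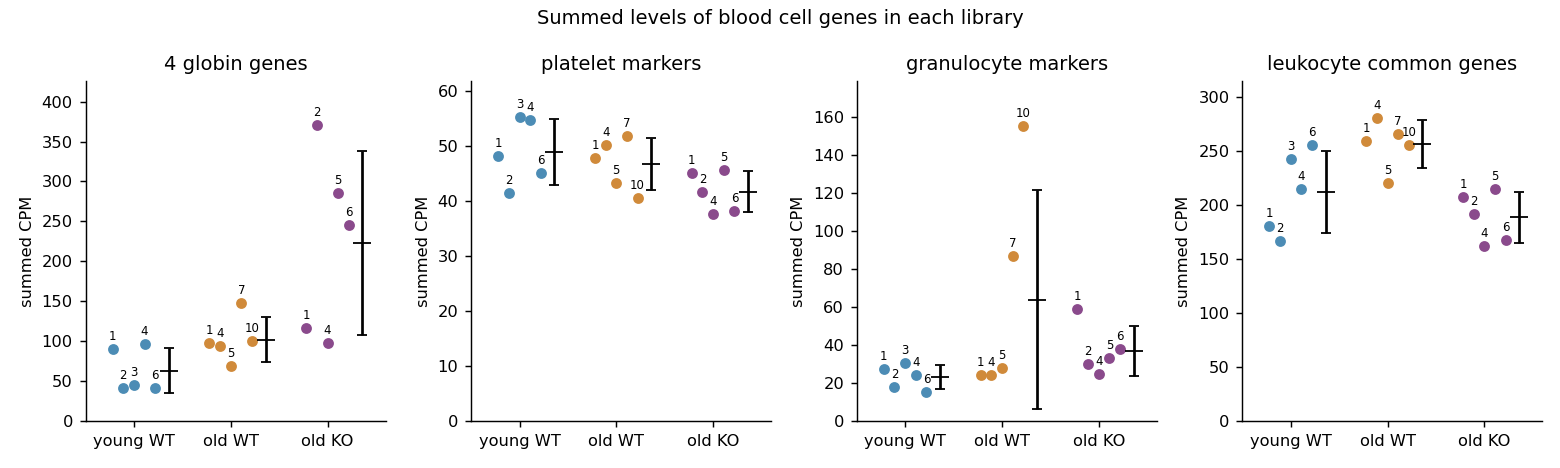
Summed CPM (vertical axes, from 0) of the 4 globin genes, 21 platelet markers, 20 granulocyte markers and 20 leukocyte genes in each library, with replicate numbers and the group mean ± SD (n = 5). The globin sum is highest in old KO 2, 5 and 6 (245 to 370 CPM), where the leukocyte sum is 168 to 215 CPM.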

How the data were processed

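Liver RNA of 15 mice, 5 per group, was sequenced, and libraries were grouped by sample title. The authors prepared stranded poly(A) libraries, sequenced single-end 50-base reads, mapped them to mm9 with TopHat (TopHat2 2.0.11 in the submitters' processing notes) and used HTSeq for counting. The authors deposited raw counts, 1 column per animal, with no normalization. The annotation, the strand setting and the handling of reads that map to several places are not given in the sources used here.

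Counts were scaled by TMM and tested in edgeR 4.0.16 (R 4.3.3) with filterByExpr and a quasi-likelihood fit of all 15 libraries without covariates. P-values were adjusted by Benjamini-Hochberg over 14258 genes, with a threshold of 0.05. Log2 CPM used a prior count of 2. DESeq2 1.42.0, limma voom (limma 3.58.1), other scalings and filters, a fit of 10 libraries and leaving out each library were alternatives. The scripts were tested on simulated data. Single ratios were compared by exact 2-sided permutation and correlations by 100000 permutations. Any 2 libraries of a group differed by more than sampling noise (chi-square per degree of freedom 19.7 to 129 over 30 pairs), and each was counted as 1 animal. Total counts of 21801754 to 38065359 make counting error small for the globins and large for Slc4a1. Floors from counts cover counting error only.

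Positions, transcripts and windows of 50 bases were taken from GENCODE M1 (NCBIM37, which is mm9) and promoter windows from RefSeq. The members and lists were chosen with earlier results of these data known. The lists were written from general knowledge, and 192 of 196 entries matched the table, 10 of them by a synonym. Beside the 6, the genes named are at most 4 per list and comparison, those with the largest change among genes called with age or genotype, the 10 most like the 6 in pattern, the cell type markers and Rps6kb1. Embryonic globins and Apex2 were named after their values were seen. Some genes that the rule or lists would name are not reported here.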

Additional observations from a re-analysis of the deposited data

Results flagged for a closer look

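Slc4a1 in young WT was the single result flagged, because 1 library lay far from the other 4. Replicate 1 was at 0.842 CPM, 32 counts, and the next highest of the 5 at 0.211 CPM, 7 counts. The gap to the nearest library was 0.750 of the range of the group, above Dixon's 95% critical value for 5 samples. The 6 genes and the globin sum were examined in 3 groups, 21 groups of values in all, and chance flags about 1 in 20. In the same library the 4 globin genes ranked between 8 and 11 from the highest of 15, while Slc4a1 ranked 3.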

How the results depend on the processing

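The count of genes called was 0 of 6 for old WT against young WT and 0 of 6 for old KO against old WT under DESeq2, limma voom, 3 other scalings, scaling without the 6 genes, both other filters, the fit of 10 libraries and the replicate block. The filter of at least 10 counts in every library left 5 of the 6 to test, without Slc4a1. Leaving out each library in turn gave 0 to 1 in the first, 0 to 0 in the second and 4 to 5 in old KO against young WT. The 1 was Slc4a1 without young WT replicate 1. Same-numbered libraries did not deviate together (correlations of -0.153 to 0.077 over 9 pairs, beside -0.267 to 0.355 over 66 pairs with other numbers). No pairing by number was seen, though these correlations cannot exclude one. With the replicate number as a block, 2 of 6 were called in old KO against young WT, Hba-a1 and Hbb-b1, where 16.4% of all genes were called, and the block changed no other call beside those of Hba-a2, Hbb-b2 and Alas2. The other alternatives gave 4 to 5 there, as the Alas2 call was lost with limma voom (adjusted p = 0.0655) and with 10 libraries (edgeR adjusted p = 0.0616). The fold change of Slc4a1 between old KO and old WT ran from -0.34 to 0.55 with 1 library left out, and reversed without old KO replicate 2 (-0.34) and without old WT replicate 5 (-0.15). Over the other lists, edgeR called 2 genes in old KO against old WT and DESeq2 15, where it called 2.14% of all genes against 0.533%, and the cause was not tested. Depth limits Slc4a1, at 0 to 33 counts a library.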
